A study of Homo sapiens with 8 samples.

Results

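The 10 genes described here are HSPA6 and 9 further genes of the cytosolic heat-shock response, HSPA1A, HSPA1B, HSPA8, DNAJB1, HSPH1, BAG3, HSPB1, HSP90AA1 and HSF1. They were taken by symbol from the table of 16525 genes deposited for EndoC-βH5 cells, and all 10 were listed in it. The genes had been chosen by their known difference between the conditions in these same libraries, so their cytokine-control differences are given as a description and without p-values.

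Heat-shock proteins are chaperones that bind unfolded protein and help it to fold, or pass it on for degradation. HSP70 proteins do this in cycles of ATP hydrolysis that J-domain proteins start and nucleotide exchange factors end, small heat-shock proteins hold unfolded protein in a soluble state, and HSP90 finishes the folding of kinases and receptors. When unfolded protein takes up the free chaperones, the transcription factor HSF1 is released from them, forms trimers, binds heat-shock elements in promoters and raises the transcription of chaperone genes. In beta cells, which make large amounts of a secreted hormone, cytosolic HSP70 has long been studied as a protective protein under inflammatory stress.

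EndoC-βH5 cells are a line of human beta cells of fetal origin, in which the oncogene and the telomerase gene that had made it grow are no longer present. They are 1 established line, so all 8 libraries share 1 genetic background. The control group held 4 libraries of untreated cells, and the cytokine group held 4 libraries of cells that were exposed to IL-1β, IFN-γ and TNFα together for 48 h. Replicate numbers were not carried by the column names. For every control column there is 1 cytokine column whose name starts in the same way, and the pairs so formed are called A, B, C and D. After the number of the pair, the names of A and B hold 21 and those of C and D hold 22, which are called series 21 and series 22. The labels do not say whether replicates were separate cultures, so p-values measure the spread between these libraries, which may be technical.

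Levels are given as CPM, the reads of a gene scaled to the total reads of its library. The library totals ranged from 46767972 to 51145634 reads, and 1 read was worth 0.0196 to 0.0214 CPM. Between 73.4% and 79.9% of the reads fell on listed genes, with the lowest shares in library D of both conditions. All 10 of 10 beta-cell markers were listed, among them INS at 1157.9 to 2905.0 CPM in control libraries. Of 6 markers of mesenchyme, endothelium and leukocytes only COL1A1 was listed, at 0.0427 to 0.844 CPM over the 8 libraries, and of 4 exocrine and duct markers only CPA1. CPA1 was at 7.47 to 9.04 CPM in control and at 2.82 to 5.04 CPM in cytokine libraries, without overlap, and its part in the results was not tested. The other islet hormones summed to between 463 and 2177.1 CPM in control libraries and between 553 and 1995.8 CPM in cytokine libraries, mostly SST. In RNA from whole cultures, a change in RNA per cell and a change in the number of cells of 1 kind cannot be told apart.

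Promoter sequences of the heat-shock genes are shown because they hold letter matches to the heat-shock element, the binding sequence of HSF1, which is built from GAA and TTC units that alternate with 2 bases between them. RefSeq windows from 250 bases before to 50 bases after the gene start (GRCh38.p14) were held for 9 of the 10 genes, in 12 windows, since DNAJB1 has 3 and HSP90AA1 has 2. Capitals mark the GAA and TTC units of runs of at least 2 units, all read 5′ to 3′ on the strand of the gene. A further 2-unit run, in the third window of DNAJB1, is not printed. Distances are from the RefSeq start of the window, which can differ from the GENCODE gene bounds given further on, and the stretches of HSPA8, DNAJB1 and HSP90AA1 lie inside those bounds.
HSPA6, chr1:161524348-161524490, plus strand: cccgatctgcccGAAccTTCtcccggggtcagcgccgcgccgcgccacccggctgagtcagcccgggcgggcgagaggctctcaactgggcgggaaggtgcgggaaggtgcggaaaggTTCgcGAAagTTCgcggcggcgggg
HSPA1A, chr6:31815425-31815456, plus strand: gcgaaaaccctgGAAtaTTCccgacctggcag
HSPA1B, chr6:31827621-31827652, plus strand: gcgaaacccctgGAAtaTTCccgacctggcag
DNAJB1, chr19:14518425-14518486, minus strand: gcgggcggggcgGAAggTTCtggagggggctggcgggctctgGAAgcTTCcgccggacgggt
HSPB1, chr7:76302479-76302510, plus strand: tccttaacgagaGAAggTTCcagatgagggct
HSP90AA1, chr14:102087093-102087144, minus strand: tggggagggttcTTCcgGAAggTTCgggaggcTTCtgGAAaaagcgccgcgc
HSPA8, chr11:123062167-123062378, minus strand: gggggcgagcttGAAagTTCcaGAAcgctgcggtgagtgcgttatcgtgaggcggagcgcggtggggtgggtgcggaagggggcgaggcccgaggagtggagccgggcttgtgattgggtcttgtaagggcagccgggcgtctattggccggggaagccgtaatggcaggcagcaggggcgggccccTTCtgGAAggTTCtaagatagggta

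A run of at least 2 units (GAANNTTC or TTCNNGAA, both strands) was found in 7 of the 9 genes with a window, beside 13.5% of 35116 promoter windows of all genes. Runs of at least 3 units were found in 3 of them, HSPA6, HSPA8 and HSP90AA1, beside 0.490% of all windows. Throughout, a gene is counted if any of its windows holds the match, while the shares of all genes are per window. The 3-unit run of HSPA6 began 74 bases before the gene start and its 2-unit run began 180 bases before it. In HSPA8 a 3-unit run lay at each end of the printed stretch, beginning 230 and 55 bases before the RefSeq start at 123062136. The windows of HSPA1A and HSPA1B were identical at 92.6% of aligned bases and both held 1 run, beginning 106 and 105 bases before the RefSeq starts at 31815543 and 31827738. HSPH1 and BAG3 had no run in their window. TATAAA was in the windows of 2 genes (11.5% of all windows) and CCAAT in those of 5 (34.6%). These are matches of letters, and a window without a match says nothing about sequence outside it.

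With cytokines 9 of the 10 genes were called higher, with a log2 fold change over 0.5 at an FDR under 0.05 (limma, all genes), and 0 were called lower. Over all 16525 genes 9.52% were called higher, 17.5% lower and 27.0% in either direction. The same 9 genes had no overlap between control and cytokine libraries, beside 32.8% of all genes. All 10 were higher with cytokines in each of the 4 pairs. The share of all genes for which this holds was not counted, and the 10 genes were chosen by this same contrast. The median log2 fold change of the 10 genes was 1.82, with a range from 0.37 for HSF1 to 8.45 for HSPA6, and the median of all genes was -0.17. After TMM scaling of the libraries the median of all genes was -0.02 and that of the 10 genes was 1.97. The calls over all genes were split into 1574 higher and 2896 lower as deposited, and into 2154 and 1933 with TMM, whereas all calls among the 10 genes were higher under both.

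**Figure D1:**
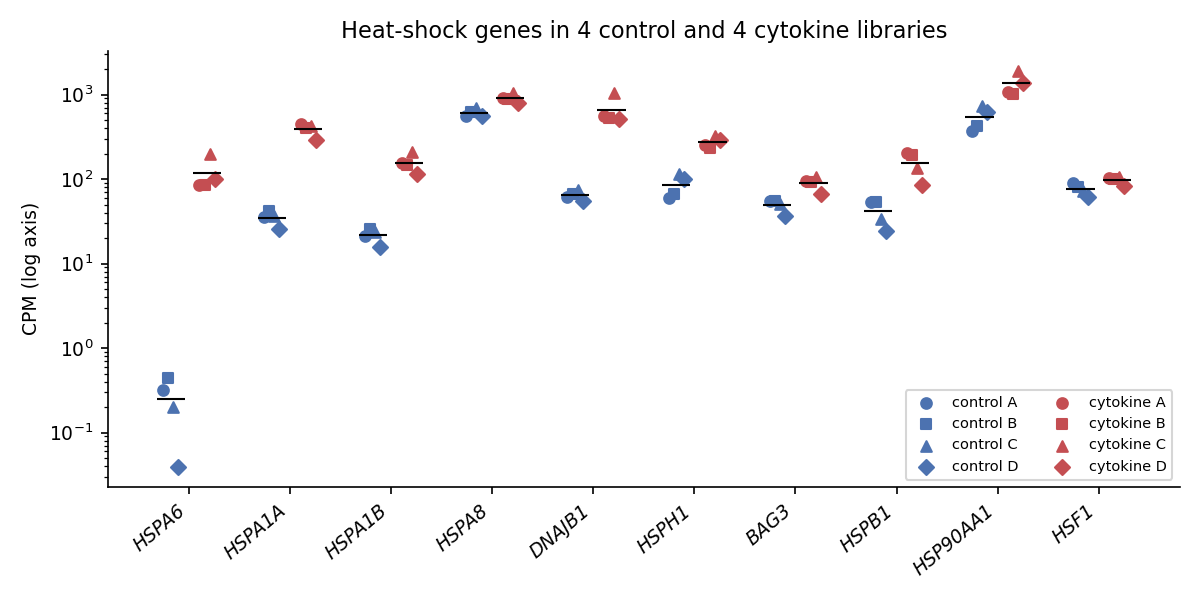
CPM of the 10 genes on a log axis, with control libraries in blue, cytokine libraries in red, a marker shape for each pair A to D and a black line at the group mean (n = 4). HSPA6 moves from a mean of 0.251 to 117 CPM, and only HSF1 has overlapping groups.

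HSPA6 (ENSG00000173110) encodes the strictly inducible HSP70, also called HSP70B′, and is a gene of 1 exon at chromosome 1, 161524540 to 161526910 (GRCh38, plus strand). It stood at 0.321, 0.444, 0.199 and 0.0391 CPM in control libraries A to D, which is 15, 21, 10 and 2 reads. With cytokines it stood at 85.7, 85.1, 196 and 100 CPM, which is 4027, 3985, 9719 and 4979 reads. The highest control library was thus far below the lowest cytokine library, and cytokine library C was above the other three. The means were 0.251 ± 0.173 and 117 ± 53.1 CPM (SD, n = 4), a ratio of 465. Within pairs the ratio of CPM was 267 in A (95% counting interval 162 to 478), 191 in B (125 to 310) and 983 in C (534 to 2050.2). In pair D it was 2558.3, with an interval of 708 to 21130.4 because the control library held 2 reads. These intervals cover counting error only. The log2 fold change of 8.45 ± 0.41 (SE) was the 8th highest of 16525 genes with the pseudocount of 0.1, and the 12th or 13th with a pseudocount of 1, DESeq2 or edgeR. In all 4 control libraries it was below 0.5 CPM, the cut-off of the deposited table, so that among these 8 libraries only those with cytokines passed it.

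HSPA6 has a near copy, the pseudogene HSPA7, 79381 bases downstream, with 98.6% identical bases over the aligned transcripts. Of all stretches of 100 bases in HSPA6 transcripts 27.6% also occur in HSPA7, which is not among the listed genes. Reads that lie wholly in these stretches align to both places, and the counter's default settings leave such reads out, so the HSPA6 counts may be too low by a share that was not measured.

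HSPA1A and HSPA1B encode the major inducible HSP70, and lie 9789 bases apart on chromosome 6, at 31815464 to 31817946 and 31827735 to 31830255 (plus strand, 1 exon each). HSPA1A (ENSG00000204389) was at 35.2, 41.7, 36.7 and 25.4 CPM in control libraries A to D and at 446, 398, 423 and 294 CPM in cytokine libraries. The lowest value in both conditions was that of library D. Its mean went from 34.8 ± 6.84 to 390 ± 67.0 CPM (SD, n = 4), 11.2 times higher, and the log2 fold change was 3.49 ± 0.18 (SE). HSPA1B (ENSG00000204388) was at 21.1, 25.7, 23.5 and 15.9 CPM without cytokines and at 156, 145, 208 and 116 CPM with them. Pair ratios were 7.41, 5.62, 8.85 and 7.27 from A to D, and the log2 fold change was 2.84 ± 0.20 (SE). The 2 transcripts are identical at 96.0% of aligned bases, and 67.3% of the 100-base stretches of HSPA1A occur in HSPA1B, so reads that fit both genes may have been left out and both counts may be too low. HSPA1B also shares 920 of its 2521 exon bases with an annotated transcript of the same strand.

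HSPA8 (ENSG00000109971) encodes HSC70, the HSP70 that is present in all cells without stress, at chromosome 11, 123057489 to 123063230 (minus strand). Without cytokines it was at 559, 626, 699 and 563 CPM, and with them at 907, 897, 1053.2 and 803 CPM. The groups did not overlap, and the ratio of means was 1.50, with a log2 fold change of 0.58 ± 0.14 (SE). The value lay just above the threshold of 0.5, and in pairs A to D it was 0.70, 0.52, 0.59 and 0.51.

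Set per length of the gene's exons, as TPM, a unit that corrects for gene length, the makeup of the HSP70 transcripts differed between the conditions. HSPA8 made up 84.8% ± 2.20 (SD, n = 4) of the summed TPM of HSPA8, HSPA1A, HSPA1B and HSPA6 in control libraries and 41.6% ± 2.29 in cytokine libraries. HSPA1A went from 9.38% ± 1.40 to 34.5% ± 3.73, HSPA1B from 5.72% ± 0.760 to 13.4% ± 1.08, and HSPA6 from 0.0701% ± 0.0483 to 10.6% ± 3.32. With the longest transcript in place of all exons as the length, HSPA8 had 91.7% in control and 58.3% in cytokine libraries and HSPA6 0.0387% and 7.53%. The direction of each share was the same with both lengths, while its size was not. Reads left out for HSPA1A, HSPA1B and HSPA6 would lower their shares, by an amount that was not measured.

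**Figure D2:**
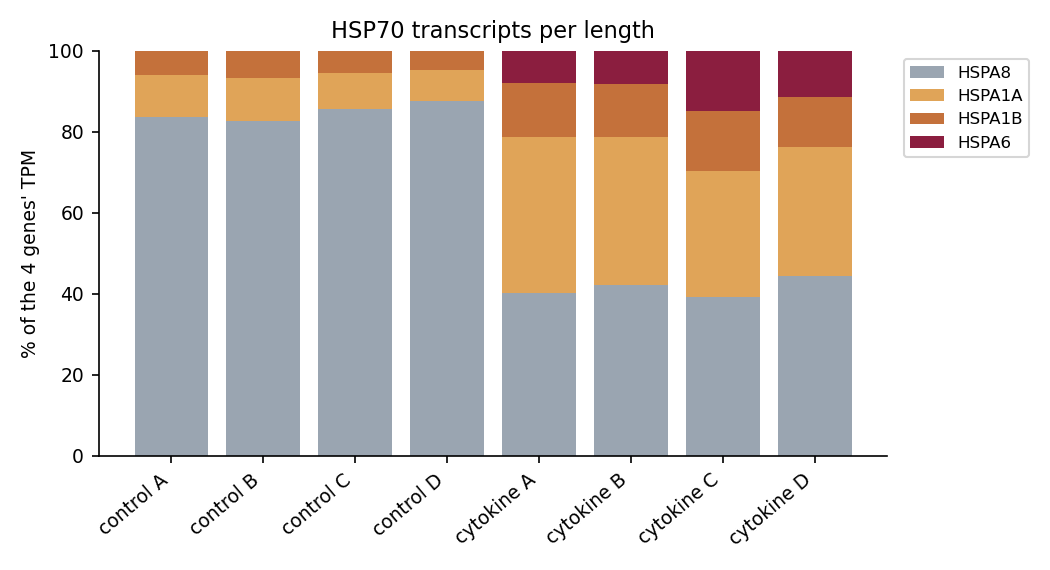
Share of each of 4 HSP70 genes in their summed TPM (vertical axis, %) in each of the 8 libraries. HSPA8 fills 82.6% to 87.5% of each control bar and 39.3% to 44.5% of each cytokine bar, and HSPA6 is visible only in the cytokine bars, at 7.78% to 14.9%.

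DNAJB1 (ENSG00000132002; chromosome 19, 14514770 to 14529770, minus strand) encodes HSP40, the J-domain protein that delivers unfolded protein to inducible HSP70. It was at 61.5, 67.3, 73.3 and 54.9 CPM in control libraries A to D and at 557, 530, 1031.1 and 509 CPM in cytokine libraries. Cytokine library C was far above the other cytokine libraries, as for HSPA6. The means were 64.3 ± 7.89 and 657 ± 250 CPM (SD, n = 4), and the log2 fold change was 3.29 ± 0.21 (SE). It shares 211 exon bases with TECR on the opposite strand.

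HSPH1 and BAG3 encode nucleotide exchange factors of HSP70. HSPH1 (ENSG00000120694; chromosome 13, 31134974 to 31162388, minus strand), the large HSP110 chaperone, was at 59.4, 67.4, 116 and 99.7 CPM without cytokines and at 255, 236, 322 and 290 CPM with them. Series 22 was higher than series 21 in both conditions. The log2 fold change was 1.73 ± 0.21 (SE), with pair ratios from 2.78 in C to 4.30 in A. BAG3 (ENSG00000151929; chromosome 10, 119651370 to 119677819, plus strand), which links HSP70 to small heat-shock proteins and to autophagy, was at 55.1, 55.4, 50.7 and 36.8 CPM in control libraries. Its cytokine libraries were at 94.6, 93.4, 105 and 66.1 CPM, with the lowest of them still above the highest control library. The log2 fold change was 0.86 ± 0.18 (SE).

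HSPB1 (ENSG00000106211; chromosome 7, 76302544 to 76304295, plus strand) encodes HSP27, a small heat-shock protein that keeps unfolded protein soluble. It was at 53.5, 53.3, 34.0 and 24.6 CPM in control libraries A to D and at 206, 195, 135 and 85.9 CPM in cytokine libraries. The level was lower in series 22 than in series 21 under both conditions, while the pair ratios were close to each other at 3.86, 3.65, 3.98 and 3.49. The log2 fold change was 1.90 ± 0.31 (SE).

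HSP90AA1 (ENSG00000080824; chromosome 14, 102080738 to 102139699, minus strand) encodes the inducible HSP90α. Control libraries A to D were at 376, 425, 732 and 627 CPM and cytokine libraries at 1083.6, 1020.6, 1925.6 and 1385.4 CPM. As with HSPH1, libraries C and D were the higher ones in both conditions. The ratio of means was 2.51 and the log2 fold change 1.33 ± 0.26 (SE). The gene shares 197 exon bases with WDR20 on the opposite strand.

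HSF1 (ENSG00000185122; chromosome 8, 144291591 to 144314722, plus strand), the transcription factor of the heat-shock response, is controlled mostly at the level of its protein. It was at 89.0, 80.5, 71.7 and 60.8 CPM in control libraries and at 102, 99.4, 106 and 82.0 CPM with cytokines. Control library A lay above cytokine library D, so the groups overlapped, although the cytokine library was the higher one in every pair. The log2 fold change of 0.37 ± 0.14 (SE) was below the threshold as deposited. With TMM scaling it was 0.52 and HSF1 was called, which made 10 calls of 10 genes. HSF1 shares 139 exon bases with DGAT1 on the opposite strand.

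**Figure D3:**
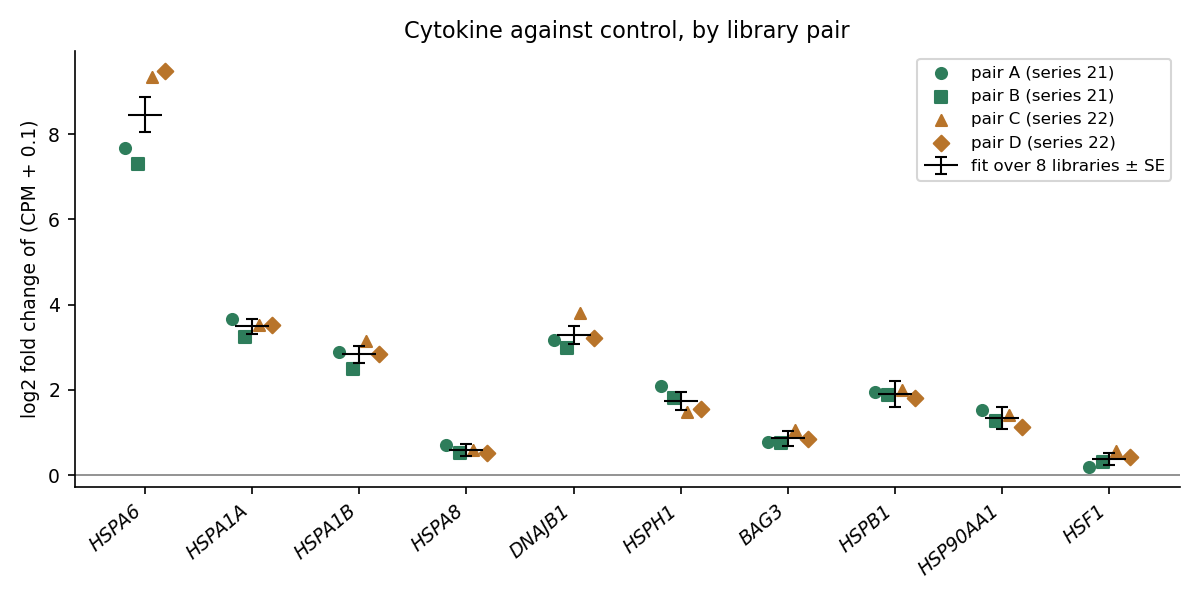
Log2 fold change of CPM + 0.1 between the cytokine and the control library of each pair (green for series 21, orange for series 22), with the value of the fit over 8 libraries and its SE in black. Every point lies above 0, from 0.19 for HSF1 in pair A to 9.49 for HSPA6 in pair D.

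Per length, HSPA8 at 485 TPM and HSP90AA1 at 407 TPM led the 10 genes in control cells, and their ranges over the libraries overlapped. HSPB1, BAG3, DNAJB1, HSF1, HSPA1A, HSPH1 and HSPA1B followed between 93.6 and 32.4 TPM, each overlapping with the next. HSPA6 was the last at 0.379 TPM, and its range did not overlap with that of HSPA1B. With cytokines the order began with HSP90AA1 at 1092.7 TPM, HSPA8 at 783 TPM, DNAJB1 at 752 TPM and HSPA1A at 646 TPM, and each of these overlapped with its neighbour. HSPA6 reached the seventh place at 209 TPM, with a range that overlapped those of HSPA1B at 257 TPM and HSPH1 at 138 TPM. With the longest transcript as the length it lay below HSPH1, at 161 and 173 TPM. HSF1 was the last at 75.7 TPM.

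The difference between the series, which was not used to choose the genes, was tested over all 8 libraries with a term for the condition. It was called for 3 of the 10 genes (20.7% of all genes were called). HSP90AA1 was higher in series 22 by 0.70 ± 0.12 on the log2 scale (SE, adjusted p = 0.000963, limma) and HSPH1 by 0.54 ± 0.11 (adjusted p = 0.00211). HSPB1 was lower in series 22, with a difference of -0.89 ± 0.13 (adjusted p = 0.000407). With TMM scaling 2 of the 10 were called (the share of all genes was not counted), since HSPH1 was at 0.41 and below the threshold. These p-values take the 4 libraries of a series as independent, although they come from 2 pairs. With 1 value per pair (2 pairs against 2) the same 3 genes were called, beside 2447 of all 16525 genes in that fit. Adjusted p was 0.0385 for HSP90AA1, 0.0244 for HSPH1 and 0.0183 for HSPB1 (limma). For HSPA6 the difference over both conditions was -0.26 ± 0.36 (SE, adjusted p = 0.606, limma). It averages opposite differences. Without cytokines HSPA6 averaged 0.383 CPM in series 21 and 0.119 CPM in series 22, and with them 85.4 and 148 CPM. The other genes differed by -0.29 to 0.20 and were not called.

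Whether the cytokine effect itself differed between the series was tested with an interaction term, which was called for 0 of the 10 genes and for 0.0303% of all genes. At an unadjusted p under 0.05 there were 2, HSPA6 and HSPH1, and the adjusted p was 0.999 for all 10 (limma). The share of all genes under that unadjusted p was not counted. The effect on HSPA6 was 7.48 on the log2 scale in series 21 and 9.42 in series 22, a difference of 1.94 ± 0.52 (SE). Of this, 1.23 came from the lower control libraries of series 22, which hold 10 and 2 reads, and 0.71 from its higher cytokine libraries. With 1 value per pair the difference was 1.94 ± 0.19 (SE, unadjusted p = 0.000288, adjusted p = 0.432, limma), and 0 genes of the table were called. For HSPH1 the effect was 1.95 in series 21 and 1.51 in series 22, a difference of -0.45 ± 0.18.

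**Figure D4:**
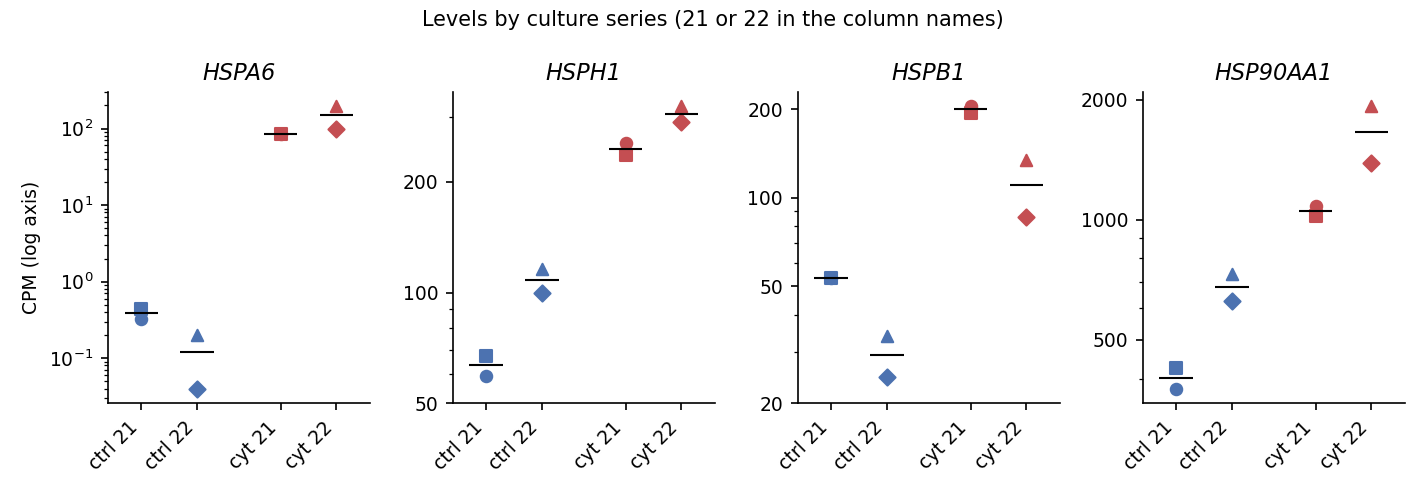
CPM on a log axis of HSPA6, HSPH1, HSPB1 and HSP90AA1 in control (blue) and cytokine (red) libraries of series 21 and 22, with a line at the mean of the 2 libraries. HSPH1 and HSP90AA1 are higher and HSPB1 is lower in series 22 in both conditions, while HSPA6 in series 22 is lower without and higher with cytokines.

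Over the 8 libraries, after the mean of each condition was taken off, the log2 levels of HSPA6 moved most like those of HSPA1B (r = 0.80), HSF1 (0.73) and BAG3 (0.72) among the other 9 genes, and least like those of HSPH1 (-0.32). HSPH1 and HSP90AA1 moved together (r = 0.94), as did HSPA1A and BAG3 (0.94). These values describe 8 libraries that share pairs and series, and no test was made on them. Outside the 10 genes, the levels most like HSPA6 over the 8 libraries were those of JUN (r = 0.9988), HLA-B (0.9982), ATF3 (0.9976), DUSP10 (0.9975) and TAP1 (0.9970), a measure that the difference between the conditions dominates. JUN, a subunit of the AP-1 transcription factor, was at 55.8, 56.9, 48.5 and 33.7 CPM in control libraries. With cytokines JUN was at 685, 645, 1158.1 and 684 CPM. Its cytokine library C stood out as it did for HSPA6 and DNAJB1, but JUN had been picked for its likeness to HSPA6. With the condition means taken off, the closest, out of 14673 genes whose mean reached 1 CPM, were FGF18 (r = 0.9569), JUN (0.9529), SLC30A3 (0.9432), ID1 (0.9421) and DUSP10 (0.9362). In the control libraries the deviations of HSPA6 come from 2 to 21 reads, so this order includes much counting noise. FGF18 itself was not called between the conditions (log2 fold change -0.29, adjusted p = 0.166, limma).

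The other chaperone genes were taken from 9 lists with 102 genes, of which 90 were measured. These lists were drawn up with earlier results of these data known. Their counts, medians and adjusted p-values are thus a description and not independent support. With cytokines 19 of the 90 were called higher, 3 lower and 68 not, with a median log2 fold change of 0.09, beside 9.52% called higher, 17.5% called lower and a median of -0.17 over all genes. By list the median was highest for the other heat-shock induced genes (0.69) and the organelle counterparts (0.62), followed by the heat-shock factors and regulators (0.20), the J-domain genes (0.17) and the HSP90 genes (0.10). It was below 0 for the chaperonin and prefoldin genes (-0.09), the small heat-shock list (-0.28, the value of HSPB11 among 3 measured genes) and the further cytosolic HSP70 genes (-0.35). With the library pair as a block the counts were 23 higher and 7 lower, and with TMM scaling 27 and 2. The calls over all 16525 genes changed with the setting too. They were 1917 higher and 3935 lower with the block, and 2154 and 1933 with TMM. On the reads they were 2149 and 1918 with edgeR, and 2360 and 2143 with DESeq2. Adjusted p-values for the list genes come from limma over all 16525 genes.

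**Figure D5:**
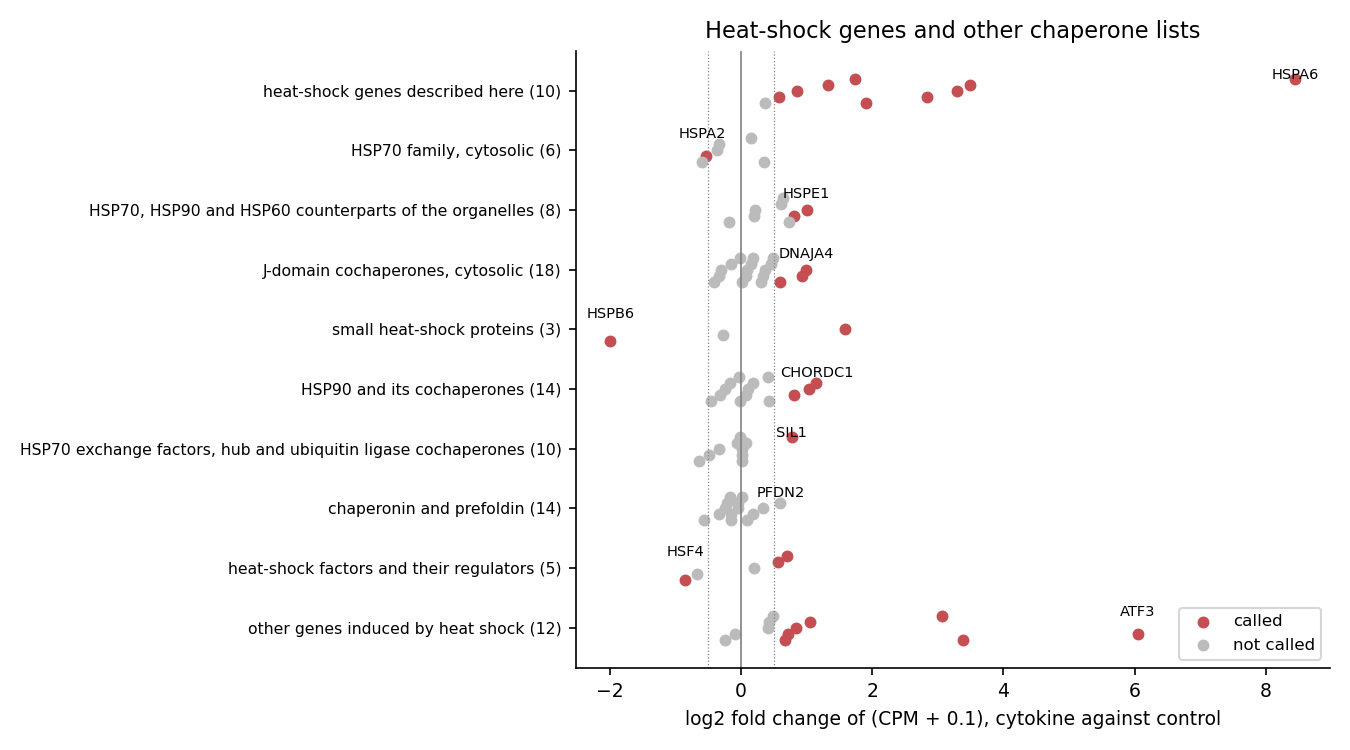
Log2 fold change of CPM + 0.1 for each measured gene of the 10 heat-shock genes (top row) and of 9 chaperone lists, with the number of genes in parentheses, called genes in red and the others in grey. Dotted lines mark the threshold of 0.5, and the gene of largest absolute change is named in each row. Among the lists ATF3 at 6.05 and HSPB6 at -1.99 lie farthest out on either side.

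Of 6 further cytosolic HSP70 genes, 0 were called higher by limma or at an unadjusted p under 0.05, 0 by edgeR and 1 by DESeq2 on the reads. HSPA12A, a distant relative of HSP70, fell by 0.53 on the log2 scale from 13.3 to 9.19 CPM (adjusted p = 0.0362), a call that was lost with TMM scaling (adjusted p = 0.117) and when any 1 of 7 libraries was left out (all but control library A). HSPA4, a large HSP70 of the exchange factor type, was at 98.8 ± 31.5 and 108 ± 18.3 CPM (SD, n = 4) and was not called (adjusted p = 0.613). HSPA2, named after its values were seen, had a log2 fold change of -0.59 (adjusted p = 0.0704) and was called lower with the library pair as a block (adjusted p = 1.13e-05). HSPA7 was not listed.

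Among 8 counterparts in the organelles 2 were called higher and 0 lower, with 4 higher after TMM scaling and by edgeR and 5 by DESeq2. HSPE1, the mitochondrial partner of HSP60, rose from 3.03 ± 0.523 to 6.13 ± 0.904 CPM (SD, n = 4, ratio of means 2.02, adjusted p = 0.00261). HSPA5, the HSP70 of the endoplasmic reticulum known as BiP, was at 234, 273, 473 and 353 CPM in control libraries A to D and at 422, 383, 698 and 511 CPM with cytokines. Control library C lay above cytokine libraries A and B, and the log2 fold change of 0.61 was not called (adjusted p = 0.0805). It was called with the library pair as a block (adjusted p = 1.68e-06), with TMM scaling (0.0221) and without control library C, and 5 of the 8 genes were called higher with the block.

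Of 18 cytosolic J-domain genes 3 were called higher and 0 lower, with 6 higher after TMM scaling and 5 by edgeR and by DESeq2. DNAJA4 rose from 48.8 ± 4.20 to 98.5 ± 18.5 CPM (SD, n = 4, log2 fold change 0.99, adjusted p = 0.000710). DNAJA1, the list's gene of highest mean CPM and a partner of HSPA8, rose by 0.93 on the log2 scale (adjusted p = 0.0275). The call on DNAJA1 was lost without control library A or B or cytokine library C or D, each left out alone (highest adjusted p = 0.0783).

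Only 3 of 10 further genes listed as small heat-shock genes were measured, and they moved in different directions. HSPB8, the partner of BAG3 in selective autophagy, rose from 0.481 ± 0.227 to 1.60 ± 0.469 CPM (SD, n = 4, log2 fold change 1.58, adjusted p = 0.00386). HSPB6 fell by 1.99 on the log2 scale, from 4.13 ± 0.737 to 1.03 ± 0.494 CPM (adjusted p = 0.000872). HSPB11 was at 15.2 and 12.4 CPM and was not called (adjusted p = 0.375).

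Of 14 genes of HSP90 and its cochaperones 3 were called higher and 0 lower, with 5 higher after TMM scaling, by edgeR and by DESeq2. CHORDC1, a cochaperone of HSP90, rose from 24.4 ± 3.16 to 54.3 ± 6.77 CPM (SD, n = 4, log2 fold change 1.15, adjusted p = 0.000111). HSP90AB1, the HSP90β that cells make without stress, was at 564, 610, 935 and 755 CPM in control libraries and at 667, 652, 1168.1 and 805 CPM with cytokines. The groups overlapped, and the log2 fold change of 0.19 ± 0.22 (SE) was not called (adjusted p = 0.567). The difference from the inducible HSP90AA1, at 1.33, was not tested.

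Of 10 exchange factor, hub and ubiquitin ligase genes only SIL1, the exchange factor of BiP, was called, at a log2 fold change of 0.77 (adjusted p = 0.0379). That call was lost without 5 single libraries, control A, B and D and cytokine C and D (highest adjusted p = 0.0987). BAG1, named after its values were seen, had a log2 fold change of -0.64 (adjusted p = 0.0661) and was called lower with the library pair as a block (adjusted p = 8.24e-06). BAG6 was at 327 ± 39.1 and 331 ± 34.9 CPM (SD, n = 4) and was not called (adjusted p = 0.933). Of 14 chaperonin and prefoldin genes 0 were called by limma and by edgeR on the reads, and 1 was called higher by DESeq2. At an unadjusted p under 0.05 in limma there was 1, CCT3, a subunit of the chaperonin that folds actin and tubulin, at a log2 fold change of -0.57 (adjusted p = 0.0668). CCT3 was called lower with the library pair as a block (adjusted p = 3.40e-06) and without control library A or cytokine library C (0.0320 and 0.0299). PFDN2, named after its values were seen, had a log2 fold change of 0.60 (adjusted p = 0.428) and was called higher with the block (0.000125).

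Among 5 measured heat-shock factors and regulators, HSF2 was called higher, from 17.4 ± 2.94 to 25.5 ± 2.09 CPM (SD, n = 4, log2 fold change 0.57, adjusted p = 0.0137), a call that was lost without control library B. HSF4 fell by 0.85 on the log2 scale from 54.4 ± 8.80 to 30.6 ± 7.92 CPM (adjusted p = 0.00787). HSBP1L1, which is similar in sequence to the HSF1-binding protein HSBP1, rose by 0.70 (adjusted p = 0.0141).

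Of 12 other genes that heat shock is known to induce, 7 were called higher and 0 lower. ATF3, a stress-induced transcription factor, was at 2.10, 2.29, 2.03 and 1.41 CPM in control libraries A to D and at 104, 107, 217 and 134 CPM with cytokines (log2 fold change 6.05 ± 0.24 SE, adjusted p = 2.41e-08). Its highest value was in cytokine library C, the library in which all of the 10 genes but HSPA1A and HSPB1 were highest. CLU, the extracellular chaperone clusterin, was at 1308.6 ± 232 and 1228.2 ± 220 CPM (SD, n = 4) and was not called (adjusted p = 0.756).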

How the data were processed

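RNA from 8 libraries of EndoC-βH5 cells was sequenced as 100-base read pairs. Per the study's methods, the authors aligned the reads to GRCh38 with TopHat 2.1.1, counted them on Ensembl genes with htseq-count 0.9.1 at default settings, which leave out reads that align to several places, and removed genes that did not exceed 0.5 CPM in 4 samples or more. In the 8 libraries used, 371 listed genes do not reach this, so the cut-off was not applied to these 8 alone. The deposited values are CPM, counts scaled to library totals of 46767972 to 51145634 reads. Every value was a whole multiple of 1 read (100% within 0.001), so reads were recovered. Another 4 columns of values were not used.

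The 10 genes and the chaperone lists were chosen with earlier results of these data known. Main test: limma 3.58.1 with an intensity trend (R 4.3.3), applied to log2(CPM + 0.1), 8 libraries, no block, Benjamini-Hochberg adjustment over 16525 genes. Such fold changes understate those of genes with few reads. Calls need an FDR under 0.05 and a log2 fold change over 0.5 in size. Alternatives were other pseudocounts (0.5, 1), a filter at a mean of 1 CPM, TMM and median-of-ratios scaling, no trend, DESeq2 1.42.0 and edgeR 4.0.16 run on recovered reads, the library pair as a replicate block, and each library left out. Leaving out pair C, a series term and 1 value per pair for the series were chosen after seeing the data. The tests were checked on simulated data. The pairs come from the column names: deviations from the group means correlated by 0.46, 0.50, 0.75 and 0.68 within pairs A to D, but control A with cytokine B by 0.45 and control B with cytokine A by 0.49. No library copies another (chi-square per gene at least 5.88). Libraries A and B were the closest, at 13.2 in control and 5.88 in cytokine libraries, beside 66.3 or more for the other comparisons within a group. The tests between the series take A and B as independent, which was not tested.

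Named from the lists are each list's largest called rise and fall and its gene of highest mean CPM, with HSPA7, HSP90AB1, HSPA5 and HSF2 always, and the 5 genes most like HSPA6 by each of 2 correlations. TPM used exon lengths of GENCODE 29 on GRCh38, which also gave the coordinates. Promoters are RefSeq's. Python 3.11.15 was used with matplotlib 3.10.9, scipy 1.17.1, numpy 2.4.6 and pandas 2.3.3.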

Additional observations from a re-analysis of the deposited data

Results flagged for a closer look

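Within groups of 4 libraries, 5 of 72 groups (36 genes in 2 conditions) had a library whose gap to the nearest other exceeded Dixon's 95% critical value, 6.94% where chance gives about 1 in 20. In cytokine library C, HSPA6 was at 196 CPM (others 85.1 to 100), DNAJB1 at 1031.1 CPM (others 509 to 557) and JUN at 1158.1 CPM (others 645 to 685). JUN had been picked for its likeness to HSPA6, so its flag is not independent of that of HSPA6. HSPA12A was low in the same library, at 6.97 CPM (others 9.70 to 10.1). BAG6 was low in cytokine library D, at 279 CPM (others 345 to 353). None of the 107 genes examined (the 10 genes, the lists and the other named genes) was called for a different cytokine effect between the 2 series (lowest adjusted p = 0.130, limma).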

How the results depend on the processing

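The count of called genes among the 10 was 9 or 10 under every alternative run, and 9 without any single library. The 10th was HSF1, called with TMM scaling, median-of-ratios scaling, edgeR, DESeq2 and edgeR with the block. Over 200 values of the 10 genes, 195 kept their side of the threshold, 5 gained a call and 0 reversed. HSPA6 ranged from 6.47 (pseudocount 1) to 9.03 on the log2 scale. Of 520 values of the 26 other named genes 465 kept their side of the threshold, 29 lost a call, 14 gained one and 12 reversed.

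With the library pair as a replicate block 9 of the 10 genes, 30 chaperone-list genes and 5852 genes in all were called, beside 9, 22 and 4470 without it. The list count was 35 in edgeR with the replicate block and 29 in edgeR without it; 17 to 26 were called without 1 library, 26 without pair C. The reversed values were those of CLU, -0.09 in the report and 0.06 with TMM, 0.07 with median-of-ratios, 0.05 with edgeR, 0.06 with DESeq2, 0.06 with edgeR and the block, and -0.20 to 0.02 without 1 library, of BAG6 (-0.06 to 0.10 without 1 library, -0.01 without pair C) and of HSPA4 (-0.02 to 0.34 without 1 library). None of these reversed values was called, and the cause was not tested. Levels per length moved by over 1 SD for 7 of the 10 genes with the longest transcript as length, HSPA8 to 765 TPM in control and 1201.8 TPM in cytokine libraries. For HSPA6 in control cells 2 to 21 reads limit the fold change.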

Other observations

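Called genes of the chaperone lists that the naming rule leaves out were looked at after their values were seen. Among the genes known to be induced by heat shock, PPP1R15A, which encodes the phosphatase subunit GADD34 that restores translation after stress, rose from 35.0 ± 5.17 to 302 ± 97.6 CPM (SD, n = 4, log2 fold change 3.07, adjusted p = 1.08e-06, limma). GADD45B, a stress-response gene, rose from 2.44 ± 0.890 to 27.3 ± 13.2 CPM (log2 fold change 3.39, adjusted p = 2.25e-05). RGS2, an inhibitor of G-protein signalling, rose by 1.05, and SERPINH1, the collagen chaperone HSP47, rose by 0.71 on the log2 scale (adjusted p = 9.45e-05 and 0.00402, limma). DEDD2 rose by 0.84 and ZFAND2A by 0.67 (adjusted p = 0.00475 and 0.0196). Of the HSP90 cochaperones, FKBP4 rose from 88.2 ± 23.4 to 177 ± 29.0 CPM and STIP1, which hands proteins from HSP70 to HSP90, from 122 ± 35.0 to 210 ± 46.1 CPM (SD, n = 4, adjusted p = 0.00170 and 0.0145, limma). HSP90B1, the HSP90 of the endoplasmic reticulum, rose from 275 ± 84.1 to 477 ± 129 CPM, with overlapping groups (adjusted p = 0.0264). The J-domain gene DNAJB5 rose from 33.3 ± 5.64 to 50.3 ± 5.77 CPM (adjusted p = 0.0112).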
